A study of Mus musculus with 9 samples.

Results

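The genes described here are 42 mouse genes whose products drive or carry out mitosis, followed in blood-forming progenitors and in neutrophils of Spop wild-type and Spop knockout mice. They were taken as a named list and looked up by symbol. The rule itself uses no measured value, but the list was drawn up with earlier results of these data known. All 42 were found among the 37187 genes of the LSK table and among the 45076 genes of the neutrophil table, and all 42 passed the filter on low counts in both populations, so none is missing from the counts below.

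The libraries were made from polyadenylated RNA of sorted bone marrow cells of mice aged 4 to 12 weeks. LSK cells are the fraction that is negative for lineage markers and positive for Sca-1 (encoded by Ly6a) and Kit, which holds blood stem cells and early progenitors, and Ly6G-positive cells are neutrophils. Each population was compared between the genotypes Spop(+/+), named WT in the library titles, and Spop(D/D), named KO. The study held 2 Spop(+/+) and 2 Spop(D/D) LSK libraries, and 2 Spop(+/+) and 3 Spop(D/D) neutrophil libraries. Spop encodes the substrate adaptor of a cullin-3 ubiquitin ligase. The labels give neither the driver of the deletion, nor the part of the gene removed, nor the number of animals behind a library. The p-values below therefore refer to the spread among the libraries at hand, and that spread may be technical.

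Mitosis is set off by Cdk1 bound to cyclin A or cyclin B, which CDC25 phosphatases activate. Polo and Aurora kinases, condensin, kinetochores and spindle motors then condense, attach and align the chromosomes, the spindle checkpoint holds back the anaphase-promoting complex until all are attached, and separase, the central spindle and the cleavage furrow finish the division. Most of these genes are transcribed late in the cell cycle. Their promoters are known for the cell cycle genes homology region (CHR), which the MuvB complex binds together with B-Myb and FOXM1 in dividing cells and with p130 and E2F4 in resting cells, and for CCAAT boxes bound by NF-Y. In bone marrow, progenitors and neutrophil precursors divide, while mature neutrophils do not.

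The counted reads ranged from 18827892 to 20264417 in the LSK libraries and from 21012702 to 27434086 in the neutrophil libraries. Levels are CPM values (counts scaled to library size) adjusted with TMM factors, and a floor of 3 reads corresponds to 0.109 to 0.159 CPM, far under every level given below for a member. The reads carry no molecular identifiers and are not independent molecules, so the floor describes counting error alone. Spop itself fell from 380 and 390 CPM in Spop(+/+) LSK cells to 312 and 306 CPM in Spop(D/D), a 1.25-fold lower level (log2 fold change -0.32, SE 0.0889, adjusted p = 0.0118, edgeR quasi-likelihood test). In neutrophils it was at 135 and 194 CPM in Spop(+/+) and at 158, 178 and 210 CPM in Spop(D/D), with overlapping genotypes (adjusted p = 0.901), so its transcript level is no check of the neutrophil labels. A label conflicts: the cell type given for LSK-KO-2 is neutrophil, against LSK in the title and in the source name. All LSK libraries held 0 reads of Ly6g and 158 to 228 CPM of Ly6a, and LSK-KO-2 was kept in its titled group.

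The promoters of the genes share sequence letters that the choice of the list did not use. RefSeq start sites on GRCm38.p6 were matched for 35 of the 42, and the window from 250 bases before to 50 bases after each start was searched for the CHR letters TTTGAA or TTCGAA and for CCAAT, on both strands, so that TTCAAA and ATTGG are the same letters read from the other strand. Neighbouring CHR and CCAAT matches can share an end base. CHR letters were in 28 of the 35 (80.0%), against 21.7% of the 27025 genes with a window and 19.2% of the 32851 windows. CCAAT was in 29 of the 35 (82.9%), against 41.1% of the genes. Both were in 26 of the 35 (74.3%), against 8.61% of the genes. With TTTGAA alone, 26 members (74.3%) and 20.2% of the genes held a match. Of the 28 members, 25 had a match that started from 50 bases before to 50 bases after the start site. Match positions were not counted for other genes, so this share has no background beside it. The 7 matched members without CHR letters were Birc5, Ccnb1, Cenpe, Mad2l1, Ncaph, Nek2 and Nusap1. A match is a description of letters and not evidence of binding.

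The first set of windows shows these letters near the start sites of members that were higher in Spop(D/D) LSK cells, from several steps of mitosis. Each runs from 120 bases before to 25 bases after the RefSeq start, 5′ to 3′ on the strand of the gene, with the CHR and CCAAT letters in capitals. In Ncapg the CCAAT letters, 176 bases before the start, lie outside the span shown. The positions on GRCm38.p6 are Cdk1 chr10:69352888-69353032 (minus strand), Bub1 chr2:127831835-127831979 (minus strand), Cdc20 chr4:118437319-118437463 (minus strand), Ncapg chr5:45669805-45669949 (plus strand) and Kif11 chr19:37376262-37376406 (plus strand).
Cdk1: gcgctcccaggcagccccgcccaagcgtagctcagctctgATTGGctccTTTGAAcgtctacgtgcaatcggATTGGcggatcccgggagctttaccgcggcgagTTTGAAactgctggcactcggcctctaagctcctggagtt
Bub1: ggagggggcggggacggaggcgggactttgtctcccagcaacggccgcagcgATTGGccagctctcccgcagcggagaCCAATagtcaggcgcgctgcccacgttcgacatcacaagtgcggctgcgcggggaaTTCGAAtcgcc
Cdc20: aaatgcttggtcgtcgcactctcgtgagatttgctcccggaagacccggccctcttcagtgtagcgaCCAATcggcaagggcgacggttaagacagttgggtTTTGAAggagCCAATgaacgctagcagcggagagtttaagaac
Ncapg: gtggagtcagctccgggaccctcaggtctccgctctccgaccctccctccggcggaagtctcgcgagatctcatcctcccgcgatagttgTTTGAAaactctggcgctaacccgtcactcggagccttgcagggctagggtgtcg
Kif11: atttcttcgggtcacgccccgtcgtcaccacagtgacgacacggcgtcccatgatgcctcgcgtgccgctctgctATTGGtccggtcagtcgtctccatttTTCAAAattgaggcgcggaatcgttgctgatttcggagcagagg

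The second set shows the members that were not called in LSK cells, in the same span and with the same capitals. They are Cdc25b chr2:131186828-131186972 (plus strand), Cenpa chr5:30666766-30666910 (plus strand), Cenpf chr1:189688062-189688206 (minus strand), Mki67 chr7:135716355-135716499 (minus strand) and Kif23 chr9:61946775-61946919 (minus strand). All of these held CHR letters as well.
Cdc25b: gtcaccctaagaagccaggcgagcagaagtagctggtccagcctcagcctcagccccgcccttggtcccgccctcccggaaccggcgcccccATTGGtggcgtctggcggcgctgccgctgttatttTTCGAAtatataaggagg
Cenpa: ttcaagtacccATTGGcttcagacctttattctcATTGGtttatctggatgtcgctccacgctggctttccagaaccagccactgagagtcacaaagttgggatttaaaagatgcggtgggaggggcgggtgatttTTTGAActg
Cenpf: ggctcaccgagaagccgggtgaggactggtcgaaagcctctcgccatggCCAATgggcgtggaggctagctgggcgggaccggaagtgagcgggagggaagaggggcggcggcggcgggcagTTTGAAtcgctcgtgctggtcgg
Mki67: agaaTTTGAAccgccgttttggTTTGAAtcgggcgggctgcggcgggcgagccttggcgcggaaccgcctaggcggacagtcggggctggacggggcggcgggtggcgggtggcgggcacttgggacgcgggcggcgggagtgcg
Kif23: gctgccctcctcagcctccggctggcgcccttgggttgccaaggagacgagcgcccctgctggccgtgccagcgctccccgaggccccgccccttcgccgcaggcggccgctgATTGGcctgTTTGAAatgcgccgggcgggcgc

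In Cdk1, CHR letters started 71 and 15 bases before the start site, and in Cdc20 they started 18 bases before it and lay between CCAAT letters. In Cdc25b and Bub1 the letters were TTCGAA and started 8 and 15 bases after it. In Mki67 the CHR letters lay farther out, 116 and 98 bases before the start.

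**Figure D1:**
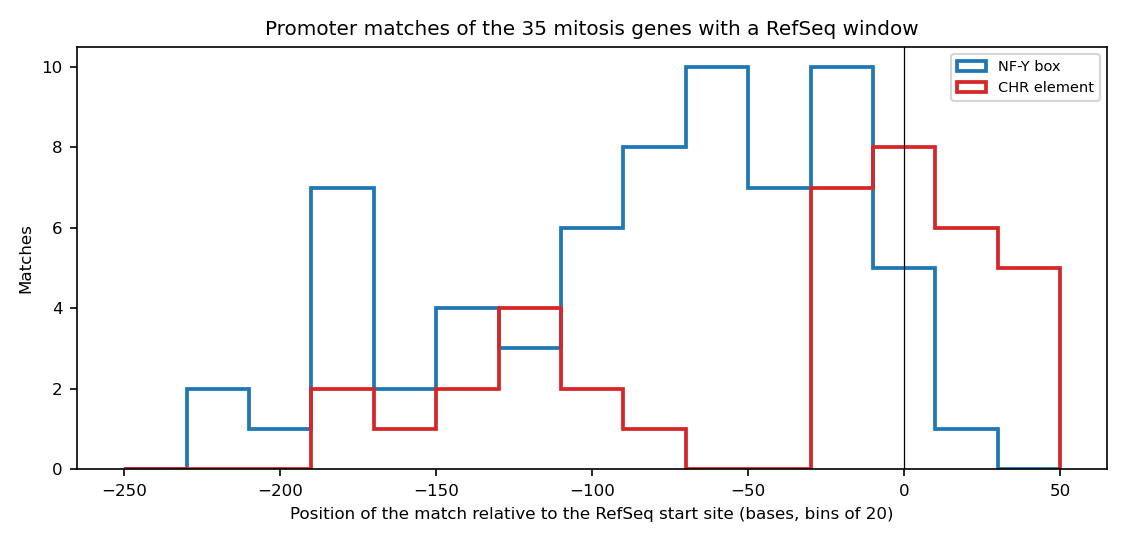
Positions of CHR letters (red) and CCAAT letters (NF-Y box, blue) in the promoter windows of the 35 matched mitosis genes, as the number of matches per bin of 20 bases (y axis) against the distance in bases from the RefSeq start site (x axis), with 1 window per gene. The CHR letters cluster around the start site, where 25 of 28 members with a match have one within 50 bases, and the CCAAT letters lie mostly before it. Positions in other genes were not counted.

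In LSK cells the mitosis genes were higher in Spop(D/D) than in Spop(+/+) across nearly every step of division. Of the 42, 37 (88.1%) were called higher and 0 lower at an adjusted p under 0.05. Of all 13008 genes tested, 21.0% were called higher, 21.2% lower and 42.2% in either direction (edgeR quasi-likelihood test with Benjamini-Hochberg adjustment, n = 2 and 2 libraries). The median log2 fold change of the members was 0.90 (1.87-fold), beside -0.03 over all genes tested. For 38 of the 42 both Spop(D/D) libraries lay above both Spop(+/+) libraries, as did 34.6% of all genes. With upper-quartile scaling the split over all genes went from 2738 higher and 2756 lower to 2207 and 3445, and 35 members stayed called. When all 4 groups of the study shared 1 estimate of the spread, the neutrophil libraries set it. In LSK cells 0 members were then called by the same edgeR test (2 at an unadjusted p under 0.05), with a median of 0.91. Over all genes, 0 of 13816 were called with that spread, and 958 had an unadjusted p under 0.05.

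The median level over the 42 genes was 67.0 and 77.6 CPM in the Spop(+/+) libraries and 131 and 140 CPM in the Spop(D/D) libraries, and their summed level was 3339 and 3480 CPM against 5965 and 6113 CPM. LSK-KO-2 held the highest level of 26 members and LSK-KO-1 that of 15, and LSK-WT-1 held the lowest level of 30. Per kilobase of exon, Ccnb2 had the highest mean level in Spop(+/+) LSK cells (67.0 CPM per kilobase), followed by Cdc20 (48.3), Smc4 (39.4) and Top2a (36.4), and Cenpf the lowest (2.40). Of the 37 called members, 15 were more than 2-fold higher: Ccna2, Ccnb1, Plk1, Aurka, Tpx2, Nek2, Aurkb, Cdca8, Bub1, Ttk, Espl1, Ncapg, Kif2c, Kif20a and Anln. Over all genes, 587 were called higher by more than 2-fold.

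**Figure D2:**
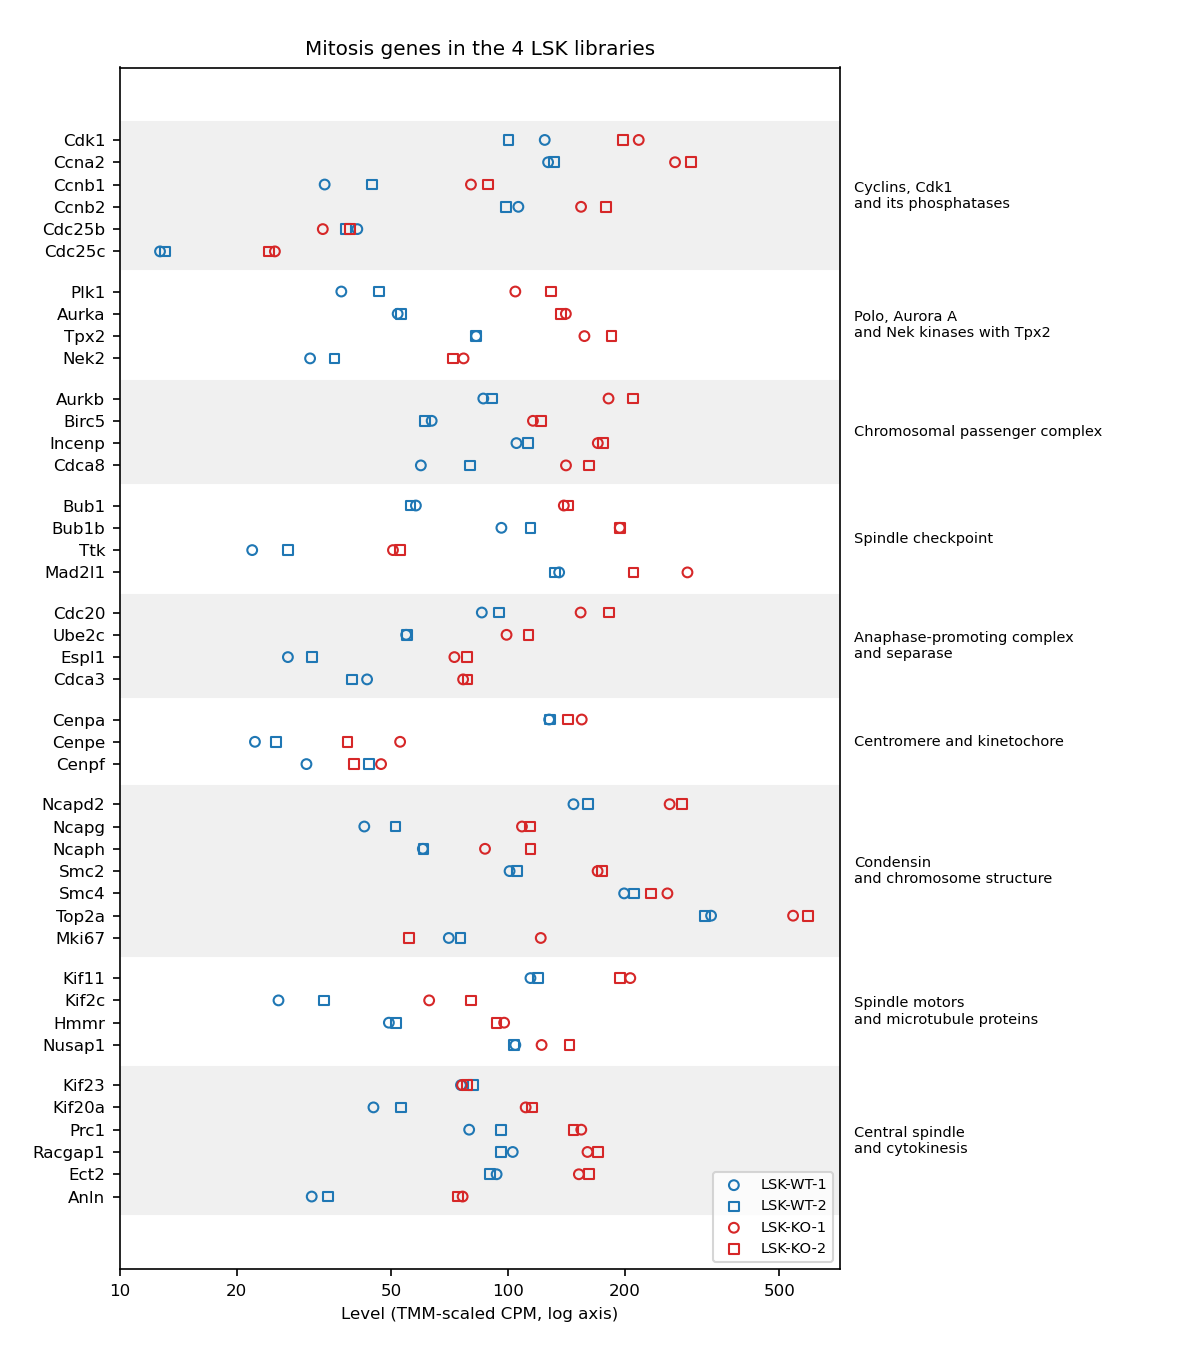
Level of each of the 42 mitosis genes in the 4 LSK libraries (x axis, TMM-scaled CPM on a log scale), grouped by role, with blue symbols for Spop(+/+) and red for Spop(D/D). For 38 genes both red symbols lie to the right of both blue ones, and Cdc25b, Cenpf, Mki67 and Kif23 are the genes whose genotypes overlap.

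Among the cyclins, Cdk1 and its activating phosphatases, 5 of 6 were called higher, with a median log2 fold change of 0.91. Cyclin A2 (Ccna2), which carries cells from S phase into mitosis, was at 127 and 131 CPM in Spop(+/+) and at 269 and 296 CPM in Spop(D/D). This was a 2.19-fold difference (log2 1.13, SE 0.0966, adjusted p = 3.03e-06). Cyclin B1 (Ccnb1), the partner of Cdk1 at mitotic entry, was at 33.7 and 44.6 CPM in Spop(+/+) and at 80.2 and 88.8 CPM in Spop(D/D) (log2 1.11, SE 0.145, adjusted p = 8.73e-05). Both cyclins were separated by genotype, and the spread within a genotype was well under the distance between them. Cdk1 rose 1.85-fold, Ccnb2 1.63-fold and the phosphatase gene Cdc25c 1.91-fold, the last from 12.7 and 13.0 CPM to 25.1 and 24.2 CPM. The related phosphatase gene Cdc25b was at 40.9 and 38.2 CPM in Spop(+/+) and at 33.3 and 39.2 CPM in Spop(D/D). Its genotypes overlapped, and its log2 fold change of -0.13 had a 95% confidence interval from -0.43 to 0.18 (adjusted p = 0.503).

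All 4 genes of the Polo, Aurora A and Nek kinase group were called, with a median log2 fold change of 1.28. Plk1, the Polo kinase of mitotic entry and spindle assembly, was at 37.2 and 46.4 CPM in Spop(+/+) and at 104 and 129 CPM in Spop(D/D). Its 2.79-fold difference (log2 1.48, SE 0.143, adjusted p = 1.05e-05) was the highest of the 42. Aurora A (Aurka), the kinase of centrosomes and spindle poles, was at 51.9 and 53.0 CPM in Spop(+/+) and at 141 and 137 CPM in Spop(D/D), 2.65-fold higher (log2 1.40, SE 0.106, adjusted p = 1.18e-06). Replicates of Aurka differed far less than the genotypes did. Its activator Tpx2 rose 2.07-fold and the centrosome kinase gene Nek2 2.24-fold.

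The chromosomal passenger complex corrects wrong attachments of chromosomes to the spindle, and all 4 of its genes were called (median log2 1.03). Its kinase, Aurora B (Aurkb), was at 86.3 and 91.0 CPM in Spop(+/+) and at 182 and 210 CPM in Spop(D/D) (log2 1.14, SE 0.106, adjusted p = 5.48e-06). Survivin (Birc5) was at 63.6 and 61.0 CPM in Spop(+/+) and at 116 and 122 CPM in Spop(D/D) (log2 0.93, SE 0.107, adjusted p = 2.65e-05). Both stood apart by genotype. Borealin (Cdca8) rose 2.17-fold, and the scaffold gene Incenp rose 1.59-fold, the smallest change of the complex.

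All 4 spindle checkpoint genes were called (median log2 0.99). The checkpoint kinase gene Bub1 was at 57.9 and 56.1 CPM in Spop(+/+) and at 139 and 143 CPM in Spop(D/D), 2.48-fold higher (log2 1.31, SE 0.105, adjusted p = 1.82e-06). BubR1 (Bub1b), a direct inhibitor of the anaphase-promoting complex, was at 96.1 and 114 CPM in Spop(+/+) and at 194 CPM in both Spop(D/D) libraries (log2 0.88, SE 0.107, adjusted p = 4.14e-05). Neither gene overlapped between genotypes. The Mps1 kinase gene Ttk rose 2.10-fold. Mad2l1, which encodes MAD2, rose 1.87-fold with unequal Spop(D/D) libraries, at 290 CPM in LSK-KO-1 and 210 CPM in LSK-KO-2, both above the 135 and 132 CPM of Spop(+/+).

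The genes grouped with the anaphase-promoting complex and separase behaved alike in direction, with 4 of 4 called (median log2 0.93). Separase (Espl1), the protease that cuts cohesin, was at 27.1 and 31.2 CPM in Spop(+/+) and at 72.7 and 78.4 CPM in Spop(D/D), 2.59-fold higher (log2 1.37, SE 0.131, adjusted p = 6.67e-06). The ubiquitin-conjugating enzyme of the anaphase-promoting complex, Ube2c, was at 54.6 and 55.0 CPM in Spop(+/+) and at 99.1 and 113 CPM in Spop(D/D) (log2 0.95, SE 0.115, adjusted p = 3.98e-05). The Spop(+/+) libraries were nearly equal for Ube2c. The activator Cdc20 rose 1.86-fold and Cdca3 rose 1.87-fold.

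The centromere and kinetochore group was the role in which the fewest members were called, 1 of 3 (median log2 0.24). The kinetochore motor gene Cenpe was at 22.3 and 25.2 CPM in Spop(+/+) and at 52.7 and 38.6 CPM in Spop(D/D) (log2 0.94, SE 0.169, adjusted p = 8.35e-04). Cenpa, the histone H3 variant that marks centromeres, was at 128 CPM in both Spop(+/+) libraries and at 155 and 143 CPM in Spop(D/D). Its genotypes did not overlap, but the log2 fold change of 0.22 (SE 0.0982, adjusted p = 0.0916) missed the threshold, and without LSK-KO-2 it passed (adjusted p = 0.0474). Cenpf, a large protein of the outer kinetochore, was at 30.2 and 43.8 CPM in Spop(+/+) and at 47.1 and 40.2 CPM in Spop(D/D). The genotypes of Cenpf overlapped (log2 0.24, 95% confidence interval -0.15 to 0.62, adjusted p = 0.309).

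Of the 7 genes of condensin and chromosome structure, 6 were called (median log2 0.74). The condensin I subunit gene Ncapg was at 42.6 and 51.3 CPM in Spop(+/+) and at 109 and 114 CPM in Spop(D/D), 2.37-fold higher (log2 1.24, SE 0.123, adjusted p = 8.45e-06). Topoisomerase II alpha (Top2a), which untangles sister DNA, was at 334 and 322 CPM in Spop(+/+) and at 543 and 591 CPM in Spop(D/D) (log2 0.79, SE 0.0932, adjusted p = 3.25e-05). Both were separated by genotype. Ncapd2 rose 1.76-fold, Smc2 1.67-fold and Ncaph 1.67-fold, so the condensin subunits did not all move by the amount of Ncapg. Smc4, the ATPase partner of Smc2, was higher by 1.20-fold, at 199 and 211 CPM in Spop(+/+) and 257 and 234 CPM in Spop(D/D) (adjusted p = 0.0453). With upper-quartile scaling that call was lost (adjusted p = 0.194), as it was without LSK-WT-1 (0.278), LSK-WT-2 (0.134) or LSK-KO-1 (0.0810).

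Mki67, which encodes the Ki-67 protein of the chromosome surface and is widely used to mark dividing cells, did not follow the others. It was at 70.4 and 75.4 CPM in Spop(+/+), at 121 CPM in LSK-KO-1 and at 55.5 CPM in LSK-KO-2. The Spop(D/D) libraries lay on either side of the Spop(+/+) libraries, and the log2 fold change of 0.28 had an SE of 0.480 (95% confidence interval -1.32 to 1.88, adjusted p = 0.700). The ratio of LSK-KO-2 to LSK-KO-1 was 0.457 for Mki67, the lowest of the 42, whose median ratio was 1.04 and highest 1.31 (Ncaph). Without LSK-KO-2, Mki67 was called higher (log2 0.73, adjusted p = 6.64e-06), and without LSK-KO-1 it was called lower (log2 -0.36, adjusted p = 0.0362), so 1 library decided its direction.

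All 4 genes of spindle motors and microtubule proteins were called (median log2 0.85). The hyaluronan-mediated motility receptor gene Hmmr, whose product acts at spindle poles, was at 49.3 and 51.5 CPM in Spop(+/+) and at 97.7 and 93.4 CPM in Spop(D/D) (log2 0.92, SE 0.113, adjusted p = 4.26e-05). Kif11, the motor that pushes the spindle poles apart, was at 114 and 119 CPM in Spop(+/+) and at 207 and 194 CPM in Spop(D/D) (log2 0.78, SE 0.0966, adjusted p = 4.79e-05). These 2 genes were separated by genotype with close replicates. The microtubule depolymerase gene Kif2c rose 2.41-fold. Nusap1, a microtubule-binding protein of the spindle, was 1.28-fold higher (adjusted p = 0.0189), a call lost with upper-quartile scaling (0.0717) and without LSK-KO-2 (0.117), LSK-WT-1 (0.105) or LSK-WT-2 (0.117).

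At the central spindle and the cleavage furrow 5 of 6 genes were called (median log2 0.78). Kif20a, the motor that carries the passenger complex to the central spindle, was at 45.0 and 52.9 CPM in Spop(+/+) and at 111 and 115 CPM in Spop(D/D), 2.31-fold higher (log2 1.21, SE 0.119, adjusted p = 8.36e-06). Anillin (Anln), a scaffold of the contractile ring, was at 31.2 and 34.3 CPM in Spop(+/+) and at 76.4 and 74.2 CPM in Spop(D/D) (log2 1.20, SE 0.124, adjusted p = 1.19e-05). Both were clear of the spread within genotypes. The microtubule bundler gene Prc1 rose 1.72-fold, the RhoA activator gene Ect2 1.71-fold and Racgap1 1.66-fold. Kif23, whose product joins that of Racgap1 in the centralspindlin complex, was at 75.6 and 81.3 CPM in Spop(+/+) and at 76.1 and 78.4 CPM in Spop(D/D). Its log2 fold change of -0.02 had a 95% confidence interval from -0.26 to 0.22 (adjusted p = 0.893), an interval that lies wholly under the 0.73 of Racgap1, although the difference between these genes was not tested.

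**Figure D3:**
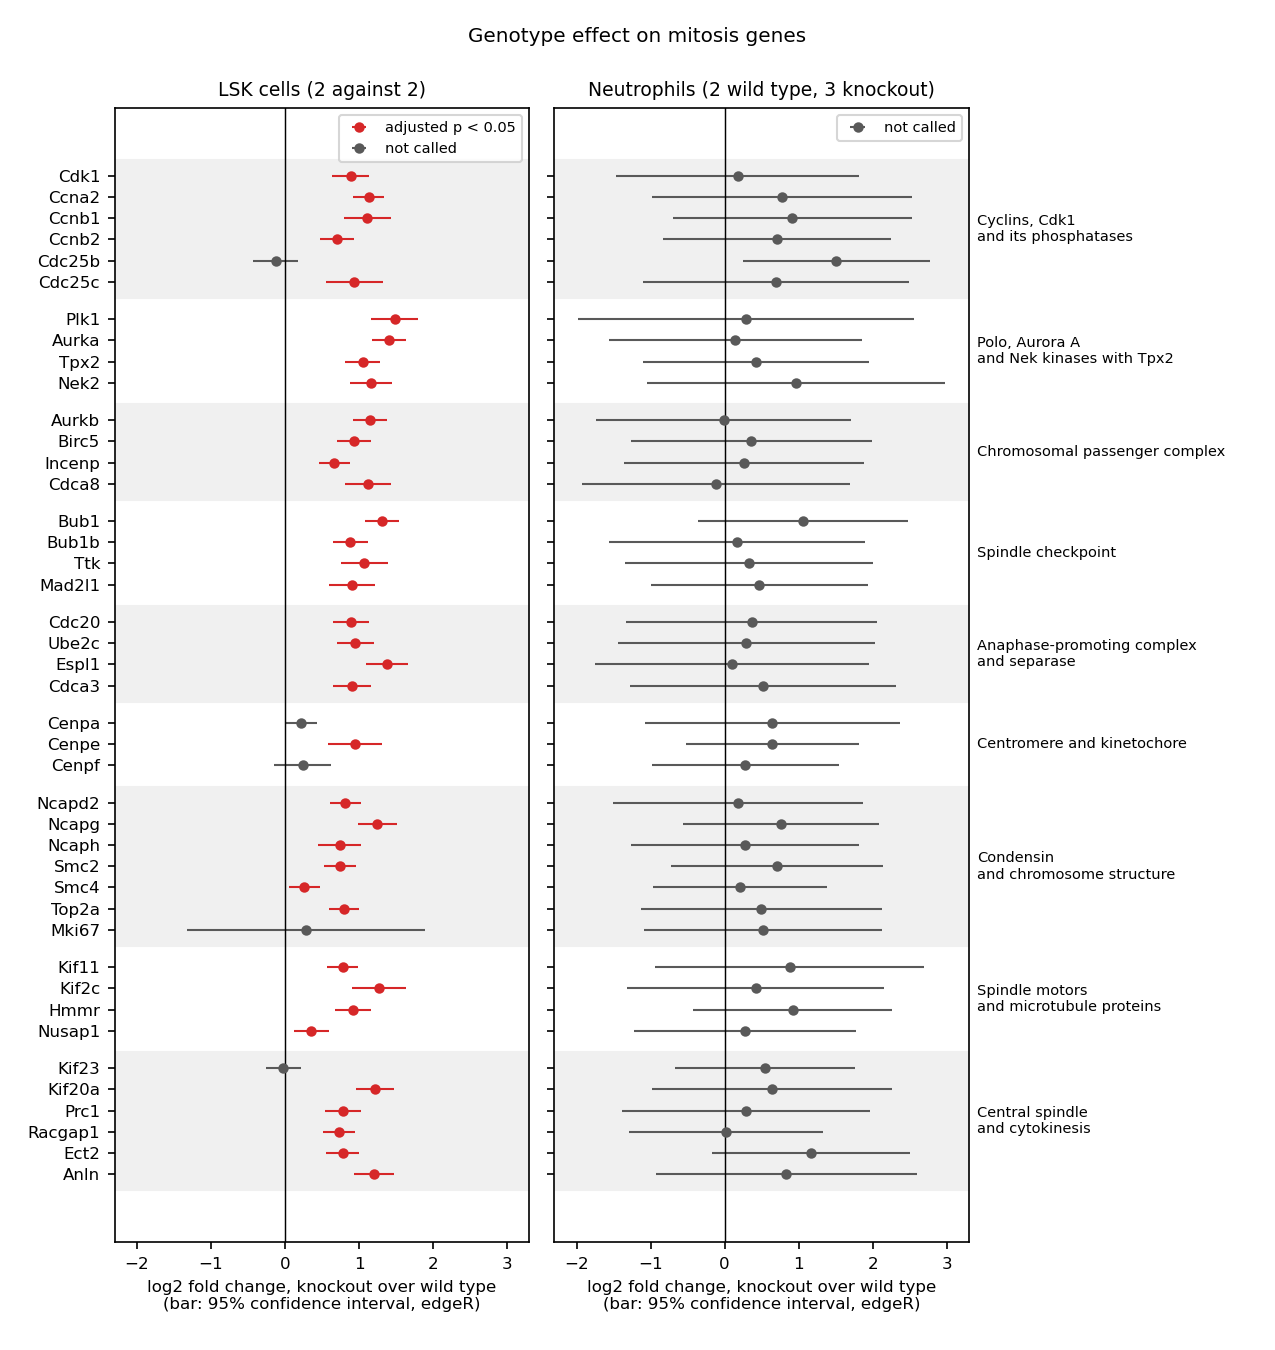
Log2 fold change of Spop(D/D) over Spop(+/+) for each of the 42 mitosis genes (points) with its 95% confidence interval from edgeR (bars), in LSK cells (left) and neutrophils (right) on the same x range. The 37 genes called in LSK cells (red) lie to the right of 0 with short bars, and all neutrophil bars except that of Cdc25b cross 0.

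CHR letters were not confined to called members, and with 5 members not called the comparison could show little separation. Of the 28 members with CHR letters 23 were called higher in LSK cells (median log2 0.88), and of the 7 matched members without them 7 were called (median log2 0.93). For CCAAT the counts were 24 of 29 (median 0.89) and 6 of 6 (median 0.92).

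Of the 20 genes for known regulators of mitotic transcription, 9 (45%) were called higher and 1 lower in LSK cells. Their median log2 fold change was 0.25. Over all genes tested, 21.0% were called higher, 21.2% lower and 42.2% in either direction. The 10 calls among the 20 regulators are thus near the share in either direction over all genes. Among the activators, Mybl2, which encodes B-Myb, was at 25.3 and 28.5 CPM in Spop(+/+) and at 66.5 and 74.9 CPM in Spop(D/D), 2.63-fold higher (log2 1.40, SE 0.134, adjusted p = 7.12e-06). Foxm1 was at 32.6 and 38.1 CPM in Spop(+/+) and at 50.8 and 50.6 CPM in Spop(D/D), 1.43-fold higher (log2 0.52, SE 0.135, adjusted p = 0.00787). Both activators were separated by genotype. Of the MuvB core, Lin54, the subunit that contacts CHR DNA, rose 1.49-fold and Rbbp4 1.31-fold, while Lin9 (log2 0.18), Lin37 (-0.08) and Lin52 (0.01) were not called. Of the repressor side, Rbl2, which encodes p130, fell from 173 and 190 CPM to 119 and 108 CPM, 1.60-fold lower (log2 -0.68, SE 0.103, adjusted p = 2.08e-04), and Rbl1, which encodes p107, rose 1.29-fold. The p130 gene was the single regulator called lower. Its partners E2f4 and Tfdp1 rose 1.25-fold and 1.59-fold, and the repressor genes E2f7 and E2f8 rose 1.82-fold and 1.74-fold. The NF-Y genes Nfya (log2 -0.13), Nfyb (0.13) and Nfyc (0.37), the MuvB kinase gene Dyrk1a (0.05), the CDK inhibitor gene Cdkn1a (-0.18), the Cdk1 inhibitory kinase gene Wee1 (0.16) and Fzr1 (-0.03), the late activator of the anaphase-promoting complex, were not called.

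Of 65 further mitosis genes outside the 42, 53 (81.5%) were called higher and 0 lower in LSK cells, beside 21.0% and 21.2% of all genes. Their median log2 fold change was 0.74. The 4 with the smallest p were Tacc3, a spindle protein (77.2 and 74.5 CPM against 185 and 200 CPM, log2 1.34), Shcbp1, a midbody protein (48.9 and 50.4 CPM against 111 and 106 CPM, log2 1.12), Sgo1, the protector of centromeric cohesion (31.8 and 34.7 CPM against 73.3 and 73.5 CPM, log2 1.14), and Pbk, a mitotic kinase (111 and 106 CPM against 198 and 186 CPM, log2 0.82). All 4 were separated by genotype. The genes of DNA replication, the step before mitosis, moved in the same direction. In LSK cells 42 of 46 (91.3%) were called higher and 0 lower, with a median of 0.75. The 4 with the smallest p were Rrm2, a subunit of ribonucleotide reductase (130 and 126 CPM against 383 and 427 CPM, log2 1.66), Cdc45 (44.7 and 45.7 CPM against 115 and 113 CPM, log2 1.33) and Mcm5 (404 and 373 CPM against 751 and 869 CPM, log2 1.06) of the replicative helicase, and the licensing factor Cdc6 (50.4 and 50.8 CPM against 113 and 117 CPM, log2 1.19). The ratio of the summed level of the 42 mitosis genes to that of the 46 replication genes was 0.483 and 0.528 in Spop(+/+) and 0.534 and 0.517 in Spop(D/D). These ratios overlapped between genotypes.

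**Figure D4:**
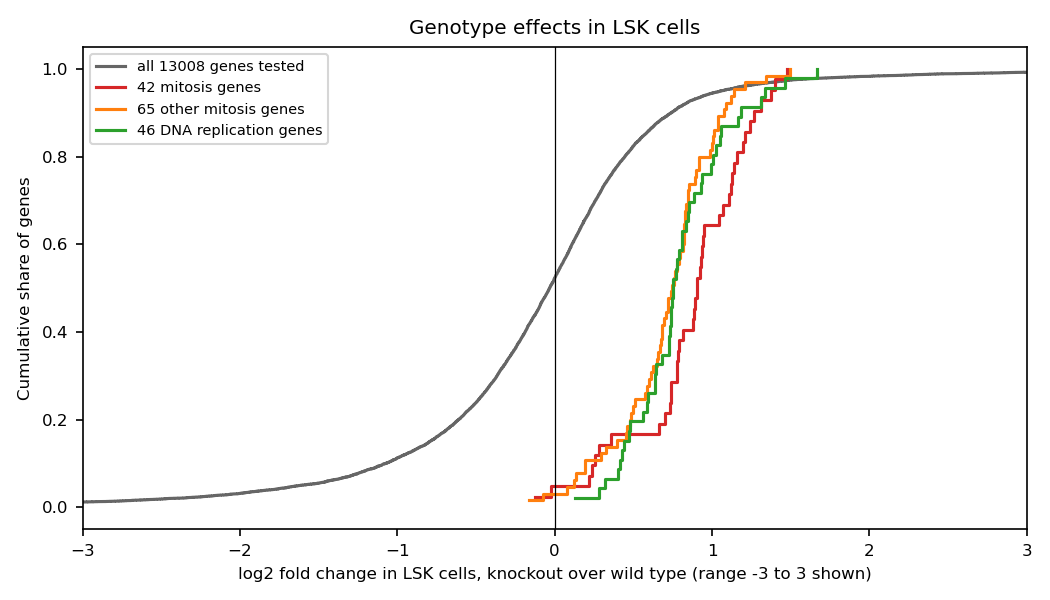
Cumulative share of genes (y axis) by log2 fold change of Spop(D/D) over Spop(+/+) in LSK cells (x axis, shown from -3 to 3) for all 13008 genes tested (grey), the 42 mitosis genes (red), 65 other mitosis genes (orange) and 46 DNA replication genes (green). The medians are -0.03, 0.90, 0.74 and 0.75, and the curves of the 3 cell cycle lists lie to the right of that of all genes over most of their range.

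Markers of cell identity moved with genotype in the same LSK libraries, in which 21.0% of all genes tested were called higher and 21.2% lower. The summed level of the 8 markers of neutrophil or monocyte precursors (Mpo, Elane, Prtn3, Ctsg, Ms4a3, Gfi1, Cebpe and Fcnb, all detected in every library) was 1643 and 2179 CPM in Spop(+/+) and 16127 and 18903 CPM in Spop(D/D), and 7 of the 8 were called higher and 0 lower. The sum of the 8 LSK or progenitor markers was 4805 and 4580 CPM in Spop(+/+) and 2750 and 3004 CPM in Spop(D/D), with 7 called lower and Ly6a called higher. The 8 monocyte or macrophage markers summed to 103 and 134 CPM against 546 and 788 CPM. Of these, Csf1r, Cx3cr1, Ly6c2 and Ccr2 were called higher, and the complement genes C1qa, C1qb and C1qc, which mark macrophages, were called lower. The 11 neutrophil markers, with Ly6g at 0, summed to 37.1 and 49.3 CPM against 165 and 104 CPM. Of these, Lcn2, Mmp8 and Cxcr2 were called higher and the granule genes Ngp and Ltf lower. The 9 B cell markers summed to 223 and 207 CPM against 63.7 and 69.1 CPM, with 8 called lower, and the 10 red cell markers to 130 and 192 CPM against 59.9 and 105 CPM, with 7 called lower. The 8 T or NK cell markers, of which 4 were tested, summed to 390 and 323 CPM against 504 and 469 CPM. Nkg7 held most of these sums (7142 and 6317 reads against 9353 and 8506) and was called higher. Klrb1c (474 and 455 reads against 261 and 234) was called lower. The part of these changes in the levels of the mitosis genes was not tested. In bulk RNA, a larger share of dividing cells and more RNA of these genes per cell cannot be told apart.

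In neutrophils no mitosis gene was called. By edgeR's quasi-likelihood test 0 of 12836 genes passed (0.00%), with 1787 genes and 1 member (Cdc25b) at an unadjusted p under 0.05. DESeq2's Wald test called 272 genes higher and 605 lower, and 0 of the members. The log2 fold changes of the members ranged from -0.12 (Cdca8) to 1.51 (Cdc25b) with a median of 0.45, and 40 of 42 were positive, beside a median of 0.02 over all genes tested. Both genotypes overlapped for all members but 2, Cdc25b and Bub1, for which each Spop(D/D) library lay above each Spop(+/+) library, and for 0 members did each lie below. Over all genes, 17.0% lay wholly above and 17.5% wholly below. With upper-quartile scaling the median of all genes moved to -0.12 and that of the members to 0.33.

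The neutrophil libraries differed among themselves more than the genotypes did. The median level over the 42 genes was 80.5 CPM in N-WT-1, 16.2 CPM in N-WT-2, and 82.3, 54.9 and 55.8 CPM in N-KO-1, N-KO-2 and N-KO-3. N-WT-2 was the lowest of the 5 libraries for 41 of the 42 genes, the exception being Mad2l1, and the level in N-WT-1 was 1.72 times (Mad2l1) to 13.2 times (Plk1) that in N-WT-2, with a median of 4.70 times. Against N-WT-1 alone, 16 members were lower in all 3 Spop(D/D) libraries, 2 were higher in all 3 and 24 lay within their range. Without N-WT-2, 13 of 42 members were positive with a median of -0.33, beside 0.07 over all genes tested. Without N-WT-1, 42 of 42 were positive with a median of 1.99, beside 0.04 over all genes tested. Each of these fits left 1 Spop(+/+) library, so only effects are given. The sign of the genotype difference thus rested on which Spop(+/+) library was used.

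Single genes show the pattern. Plk1 was at 140 CPM in N-WT-1 and 10.6 CPM in N-WT-2, and at 136, 73.9 and 64.7 CPM in Spop(D/D). Ccna2 was at 192 and 33.6 CPM in Spop(+/+) and at 220, 122 and 236 CPM in Spop(D/D). Top2a was at 177 and 38.2 CPM in Spop(+/+) and at 210, 147 and 98.2 CPM in Spop(D/D). In each of these the low library was N-WT-2. The Spop(D/D) values lay on both sides of N-WT-1 for Ccna2 and Top2a, and all below it for Plk1. Ube2c was at 233 and 49.7 CPM in Spop(+/+) and at 159, 93.9 and 268 CPM in Spop(D/D). Birc5 was at 150 and 33.7 CPM in Spop(+/+) and at 99.0, 76.9 and 179 CPM in Spop(D/D). Cenpa was at 154 and 53.9 CPM in Spop(+/+) and at 117, 74.3 and 297 CPM in Spop(D/D). For these 3 genes N-KO-3 was the highest of all libraries. Nusap1 was at 114 and 25.7 CPM in Spop(+/+) and at 103, 60.9 and 90.8 CPM in Spop(D/D). Racgap1 was at 158 and 49.3 CPM in Spop(+/+) and at 132, 81.0 and 103 CPM in Spop(D/D). Both lay under N-WT-1 in every Spop(D/D) library. Mad2l1 was at 56.3 and 32.7 CPM in Spop(+/+) and at 43.6, 29.8 and 112 CPM in Spop(D/D), so that N-KO-2 was its lowest library and N-KO-3 its highest.

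The 6 members with the smallest unadjusted p in neutrophils were Cdc25b, Ect2, Bub1, Hmmr, Ncapg and Ccnb1. Cdc25b, which was flat in LSK cells, was at 48.2 and 16.1 CPM in Spop(+/+) and at 103, 92.8 and 78.8 CPM in Spop(D/D). Its genotypes did not overlap (log2 1.51, SE 0.532, 95% confidence interval 0.25 to 2.77), and its adjusted p by edgeR was 0.286. Bub1 was at 23.1 and 6.71 CPM in Spop(+/+) and at 43.1, 26.4 and 23.7 CPM in Spop(D/D), with the lowest Spop(D/D) library just above N-WT-1 (log2 1.06, adjusted p by edgeR 0.479). Ect2 was at 18.9 and 8.13 CPM in Spop(+/+) and at 45.5, 18.3 and 27.4 CPM in Spop(D/D) (log2 1.17, adjusted p by edgeR 0.413). Hmmr was at 28.7 and 9.16 CPM in Spop(+/+) and at 40.4, 43.0 and 23.8 CPM in Spop(D/D) (log2 0.92). Ncapg was at 36.6 and 11.9 CPM in Spop(+/+) and at 52.9, 28.3 and 41.9 CPM in Spop(D/D) (log2 0.76). For Ect2, Hmmr and Ncapg 1 of the Spop(D/D) libraries lay below N-WT-1. Ccnb1 was at 36.8 and 8.04 CPM in Spop(+/+) and at 46.7, 25.3 and 55.0 CPM in Spop(D/D) (log2 0.91), with the same overlap.

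The same libraries differed in markers of other cells. The sum of the 8 precursor markers was 11682 CPM in N-WT-1, 833 CPM in N-WT-2, and 6153, 2066 and 5683 CPM in the Spop(D/D) libraries, so N-WT-2 was lowest here as well. The 11 neutrophil markers summed to 38673 CPM in N-WT-2 and to between 223731 and 674334 CPM in the others. The 9 B cell markers summed to 1815 CPM in N-WT-2, against 73.6 CPM in N-WT-1 and 3.28 to 10.3 CPM in Spop(D/D). The 8 T or NK cell markers summed to 751 CPM in N-WT-2 and 36.5 to 179 CPM in the others. The 10 red cell markers summed to 1725 and 3650 CPM in Spop(+/+), to 36.6 and 2.33 CPM in N-KO-1 and N-KO-2, and to 18227 CPM in N-KO-3. The 8 monocyte or macrophage markers summed to 1444 CPM in N-WT-2 and to between 1638 and 2505 CPM in the others. Among them, Ly6c2 was lowest in N-WT-2 (447 CPM, against 1250 to 2410 CPM). Adgre1, C1qa, C1qb, C1qc, Ccr2, Csf1r and Cx3cr1 were each highest in N-WT-2. The 8 LSK or progenitor markers summed to 417 CPM in N-WT-2, 326 CPM in N-KO-2 and 42.1 to 52.3 CPM in the others. Ly6a made up 276 CPM of the sum in N-WT-2 and 312 CPM of that in N-KO-2. Kit and Flt3 were highest in N-WT-2, and Cd34, Hlf, Mecom, Meis1 and Gata2 were not. The part of all these markers in the levels of the mitosis genes was not tested. Without N-WT-2 and N-KO-3, 0 members were called, 12 of 42 were positive and the median was -0.29.

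**Figure D5:**
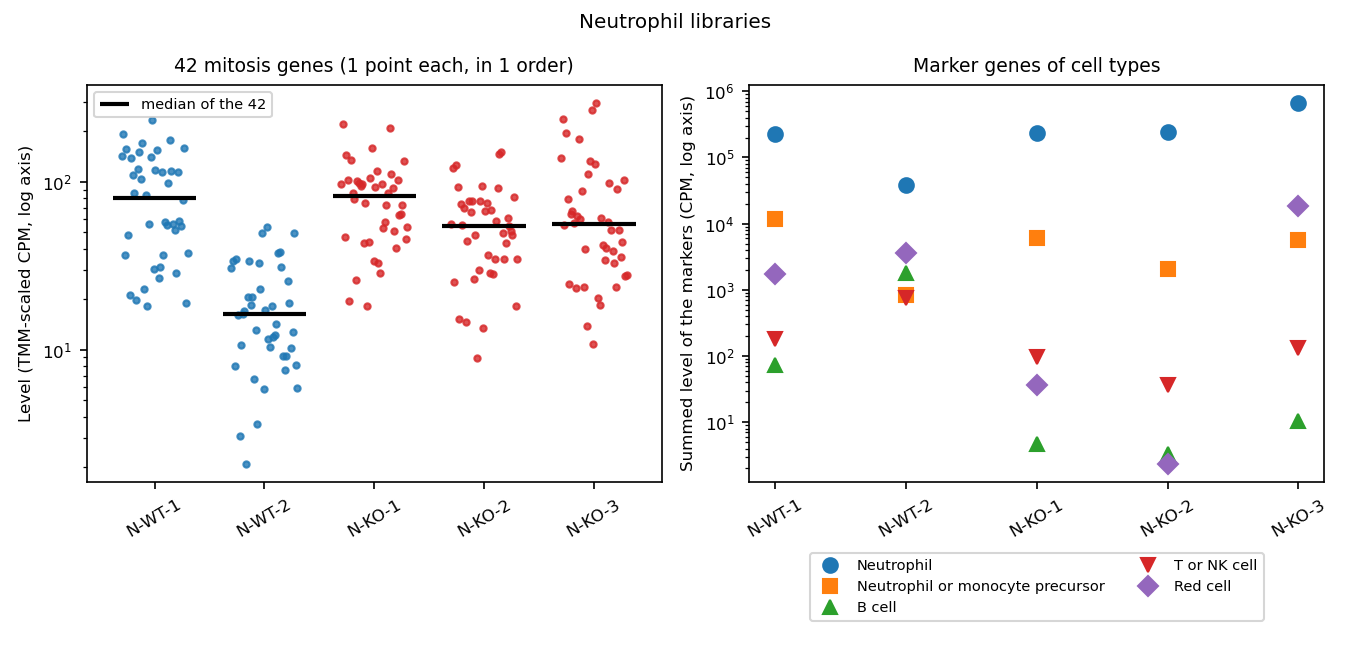
Left, level of each of the 42 mitosis genes (points, TMM-scaled CPM on a log axis) in the 5 neutrophil libraries, blue for Spop(+/+) and red for Spop(D/D), with the median of the 42 as a black bar. Right, summed level of the marker genes of 5 kinds of cell in the same libraries (CPM, log axis). N-WT-2 has the lowest median of the mitosis genes (16.2 CPM), the lowest sums of neutrophil and precursor markers and the highest sum of B cell markers.

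The 65 other mitosis genes gave 0 calls in neutrophils (1 at an unadjusted p under 0.05 by edgeR, 0 higher and 0 lower by DESeq2), with 52 of 65 positive and a median log2 fold change of 0.32. The 46 replication genes had 19 positive and a median of -0.11. Here too the sign turned on 1 library, with 38 positive and a median of 0.71 without N-WT-1, and 3 positive and a median of -0.58 without N-WT-2. The ratio of the summed mitosis genes to the summed replication genes was 1.26 and 0.744 in Spop(+/+) and 1.53, 1.77 and 1.67 in Spop(D/D). All 3 Spop(D/D) libraries thus lay above both Spop(+/+) libraries in this ratio, which was not tested. The lowest ratio was that of N-WT-2, the library with the lowest neutrophil marker sum (38673 CPM) and the highest B cell marker sum (1815 CPM). Among the regulators, Foxm1 was at 52.6 and 6.35 CPM in Spop(+/+) and at 38.6, 24.9 and 24.6 CPM in Spop(D/D), and Mybl2 at 37.8 and 5.44 CPM against 19.7, 14.0 and 7.22 CPM. Both were highest in N-WT-1 and lowest in N-WT-2. The 20 regulators gave 0 calls in neutrophils, with 11 positive and a median log2 fold change of 0.11. Lin54, Nfyb and Rbl2 lay wholly above Spop(+/+), and E2f4 and Lin52 wholly below, beside 17.0% and 17.5% of all genes. Rbl2, which was called lower in LSK cells, was at 21.3 and 23.4 CPM in Spop(+/+) and at 37.6, 34.7 and 25.8 CPM in Spop(D/D). Of the 42 mitosis genes, 41 were lowest in N-WT-2, and 16 were highest in N-WT-1.

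The genotype effect was not shown to differ between LSK cells and neutrophils for any of the 42 genes. In 1 fit over the 9 libraries, the interaction of genotype and population was called for 0 members and for 4 of 13816 genes (0.0290%). The LSK effect minus the neutrophil effect was positive for 36 of 42 members, with a median of 0.47 on the log2 scale. That sign and size rested on the Spop(+/+) neutrophil library used: without N-WT-1, 1 of 42 was positive with a median of -1.14, and without N-WT-2, 41 were positive with a median of 1.12. With the replicate number as a block, 22 were positive and the median was 0.003. Cdc25b was the single member with an unadjusted p under 0.05 (log2 difference -1.57, adjusted p by edgeR 0.297). Without N-WT-1, which left 1 Spop(+/+) neutrophil library, the difference was -2.62 for Cdc25b, -2.17 for Nek2 and -1.59 for Kif23, beside the median of -1.14. These genes were named after their values were seen.

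The library kit does not keep the strand of RNA. At least 10% of the exon bases of Ccna2, Cdc25c, Ube2c, Ncapg, Kif20a and Prc1 are shared with a gene on the opposite strand in the GENCODE annotation, with the largest share in Kif20a (29.3%, with Cdc23). Reads of these pairs cannot be told apart, and the values of these 6 genes are uncertain to that extent.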

How the data were processed

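RNA-seq libraries of 4 LSK and 5 neutrophil samples were grouped by population and genotype as their titles state. Tools named in the submitters' processing notes, with no version, were STAR, featureCounts, bcl2fastq and DESeq2, and the builds were mm10 and GRCm38. The strand setting of the counting is not given in the sources used here. Libraries were made with a SMART-Seq v4 kit, per the labels. The authors deposited raw read counts per gene for each population, which were used in all tests, and normalized values (unit: signal), which equalled the counts divided by 1 factor per library and served only to look up the members. Ensembl identifiers of the LSK table were paired with symbols through GENCODE M21 (35412 of 37187), and 41706 of the 45076 neutrophil symbols were in that annotation. The joint fits used 35219 genes paired by symbol.

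Counts were tested within each population with edgeR 4.0.16 (R 4.3.3): TMM factors, filterByExpr by group, glmQLFit with its robust option, the quasi-likelihood F test, and Benjamini-Hochberg adjustment over all genes tested with a threshold of 0.05. All adjusted p-values are from this test unless another is named. Alternatives were upper-quartile factors, DESeq2 1.42.0 size factors and its Wald test, no filter, a spread shared by all groups, the replicate number as a block, and each library left out in turn with the gene filter kept. Leaving out N-WT-2 and N-KO-3 together was added after seeing the data. Where 1 library of a group was left, it was assumed to vary like the others. No pair of replicates was a duplicate (the lowest chi-square per gene between their counts was 9.76). The procedure was also run on simulated data. Their spread was set in advance and not taken from these libraries, so that run does not bear on the neutrophil results.

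The members, roles and lists were chosen with earlier results of these data known. Named with values were, per role, the 2 members with the smallest p in LSK cells, each member not called there, in neutrophils the 6 with the smallest p and the one with the highest mean CPM in each role, the 4 replication and 4 other mitosis genes with the smallest p, and every regulator. Promoter windows are RefSeq's on GRCm38.p6, and coordinates of genes were read from GENCODE M21.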

Additional observations from a re-analysis of the deposited data

How the results depend on the processing

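In LSK cells, 35 to 38 members were called higher over all scalings, filters, the DESeq2 test, the replicate block (37) and the libraries left out in turn (35 to 38), with 0 lower except without LSK-KO-1 (1, Mki67). The spread shared by all 4 groups gave 0 calls of members, of other mitosis genes, of regulators and of replication genes in LSK cells, where the other settings gave 42 to 54 other mitosis genes, 7 to 10 regulators and 36 to 44 replication genes. Over all 13816 genes tested the shared spread also gave 0 calls in LSK cells. The neutrophil libraries that set this spread differ more among themselves than the LSK libraries. In neutrophils 0 members were called under every setting run. Other mitosis genes gave 0 calls there except without N-WT-1 (0 to 3 over libraries left out: Depdc1b, Gtse1 and Tacc3, named after their values were seen), and the interaction gave 0 to 3. Same-numbered deviations from the group mean correlated at 0.009 in LSK cells, where 2 libraries per group make replicates 1 and 2 mirror each other. In neutrophils the correlations were 0.241 and -0.007, which does not decide whether replicate numbers pair the libraries. The replicate block moved the neutrophil median from 0.45 to 0.87 and turned Mad2l1 (-0.25). In neutrophils the edgeR calls over all genes went from 0 to 76 higher and 258 lower with no filter, 86 and 248 with the block, and 120 and 442 with the shared spread. Log2 fold changes that turned in sign in LSK cells, over libraries left out, were those of Kif23 (-0.072 to 0.033, with 0.001 under DESeq2 size factors and its Wald test and 0 with no filter), Cdc25b (up to 0.019), Cenpf (-0.006 to 0.529) and Mki67 (-0.36 to 0.732). In neutrophils positive members went from 40 to 13 of 42 without N-WT-2. Among the 15 members named there and followed singly, the signs that turned over libraries left out, with the lowest value without N-WT-2 or N-KO-3 and the highest without N-WT-1, were those of Birc5 (-0.376 to 1.812), Ccna2 (-0.024 to 2.52), Cenpa (-0.125 to 1.591), Mad2l1 (-0.279 to 0.914), Nusap1 (-0.463 to 1.722), Plk1 (-0.643 to 3.108), Racgap1 (-0.617 to 1.098), Top2a (-0.254 to 1.992) and Ube2c (-0.457 to 1.804), while Ccnb1 ran from 0.168 to 2.394. Without both N-WT-2 and N-KO-3 the values were -0.79 (Birc5), -0.177 (Ccna2), -0.047 (Ccnb1), -0.702 (Cenpa), -0.634 (Mad2l1), -0.497 (Nusap1), -0.425 (Plk1), -0.582 (Racgap1), -0.001 (Top2a) and -0.898 (Ube2c). Racgap1 also turned with DESeq2 size factors, its Wald test and no filter (-0.006 each), the shared spread (-0.032) and upper-quartile scaling (-0.097). The cause was not tested.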
